A study of Mus musculus with 2 samples.

Results

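The centromere-proximal Hmga2 peaks of the mouse autosomes are the peaks of the Hmga2 ChIP-seq list whose centre lies after the first 3000000 bases and within the first 8000000 bases of chromosomes 1 to 19. The rule uses the position of a peak and none of its other values, although the region was picked with earlier results of these data known. Of the 34597 peaks of the list, 34086 are on autosomes and 1080 of these met the rule, which is 3.17% of the autosomal peaks. Chromatin immunoprecipitation with an antibody against endogenous Hmga2 was done once. Per the labels the chromatin came from the embryonic stem cell line E14Tg2a of the mouse, brought to stabilized epiblast-like cells (EpiLCs) with activin A and bFGF, whereas the methods of the study speak of epiblast stem cells made from iPSCs. The series holds 1 ChIP library and 1 input library of the same cells, for which no antibody was used, and both come from 1 cell line without genetic modification named in the labels. Peak positions are given in the coordinates of the list, counted from 1, on the build mm9 that the processing notes of the submitters name.

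Hmga2 is an architectural chromatin protein that binds short A+T-rich stretches in the minor groove of DNA through its AT-hook domains and is expressed in early embryonic cells. Mouse chromosomes are telocentric, with the centromere at one end. The centromere consists of minor satellite repeats, flanked by long A+T-rich arrays of major satellite repeats, which gather in the nucleus as chromocentres, the foci of constitutive heterochromatin that stain densely with DAPI. These arrays are not part of the assembled sequence, and reads that map to many places were removed by the authors, so the list does not address the arrays themselves. The sequence, repeats and genes at the peaks were not analysed here.

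The list describes each peak by its length, by its pileup, which is the mean number of overlapping ChIP fragments over the peak, by its fold over the local background and by p and q values of the peak caller. With 1 ChIP library there is no error between experiments and no test between regions was possible. All intervals are 95% intervals that cover counting error of peaks only. They are too narrow for comparisons of windows, because peaks lie in groups. Over the 434 windows of 5 Mb that tile the interior of the autosomes, the variance of the peak count was 19.4 times its mean, where counting error alone gives a value of 1. Most pileups were low, and 7.31% of the members had a pileup of at least 10. For a count of 6 fragments, close to the median pileup of the list, the exact Poisson interval runs from 2.20 to 13.1.

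How the centromere-proximal ends compared with the rest of their chromosomes was addressed first, with the interior defined as the stretch from the first base after the window to 5 Mb before the last peak end. Densities were taken per Mb of coordinates. Assembly gaps and stretches where reads map to many places were not subtracted, and their part in the densities was not tested. The centromere-proximal windows held 11.4 peaks per Mb and the interior 14.3, a ratio of 0.793 (exact interval 0.745 to 0.842). The density was below that of the own interior on 14 of the 19 autosomes and above it on 5, namely chromosomes 3, 6, 8, 9 and 13. The interval of the ratio lay below 1 on 8 autosomes, above 1 on chromosome 8 only, and held 1 on the other 10. The median over the autosomes was 0.806.

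**Figure D1:**
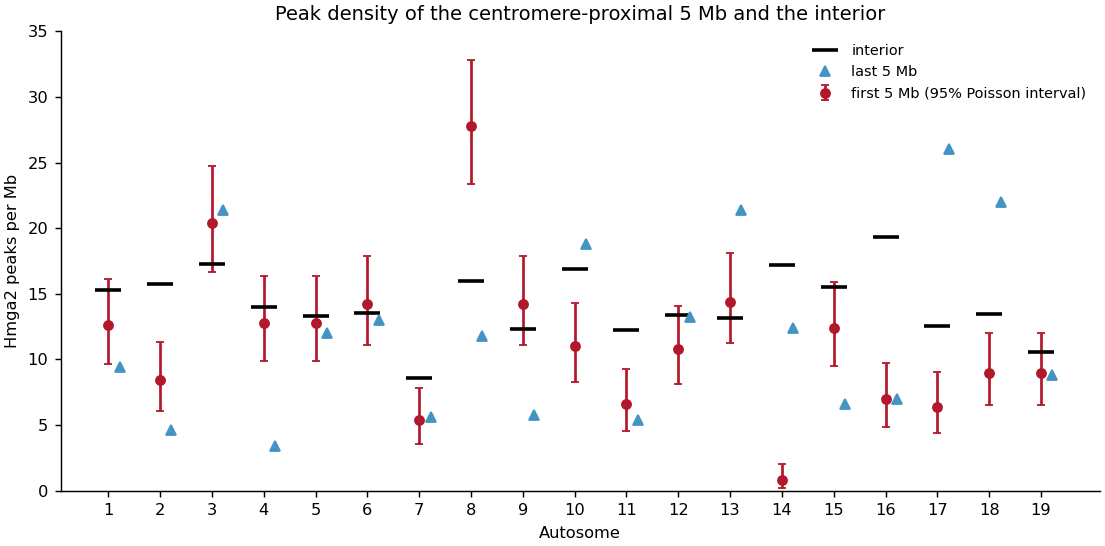
Hmga2 peaks per Mb (vertical axis) on each autosome (horizontal axis) in the first 5 Mb (red circles, bars are exact 95% Poisson intervals), in the interior (black dashes) and in the last 5 Mb (blue triangles). The circles lie below the dashes on 14 autosomes, far below on chromosome 14 with 0.8 against 17.2 peaks per Mb, and far above on chromosome 8 with 27.8 against 15.96.

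The windows differed widely from each other. Their counts ran from 4 to 139 peaks with a median of 55, and the variance over the 19 windows was 15.1 times the mean, beside 19.4 for the interior windows of the same size. The density of a centromere-proximal window also said little about its chromosome, since the Spearman correlation with the interior density was 0.17 and the Pearson correlation 0.18 (19 autosomes of 1 library, given as a description). The fullest windows were those of chromosomes 8, 3 and 13, with 139, 102 and 72 peaks. The emptiest were those of chromosomes 14, 7 and 17, with 4, 27 and 32 peaks. Chromosomes 7 and 11, the latter with 33 peaks, were thus among the 4 emptiest.

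Each window was then placed among all 5 Mb windows of its own chromosome, a comparison that is not drawn upwards by a few very full interior windows. The median interior window held 63.5 peaks, with a range of 7 to 247. Compared with the median interior window of the same chromosome, 12 centromere-proximal windows held fewer peaks, 6 held more, and that of chromosome 15 held as many. The window of chromosome 14 was the emptiest of its 23 windows, and none of the 434 interior windows of the autosomes held as few as its 4 peaks. On chromosomes 11, 16 and 17 only 1 interior window was emptier, out of 21, 16 and 16. Chromosome 8 stood at the other end, where only 2 of 23 interior windows were fuller. Its 139 peaks were not without equal elsewhere, since 29 of the 434 interior windows held at least as many. Most windows therefore lay within the range that the interior of their own chromosome covered.

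**Figure D2:**
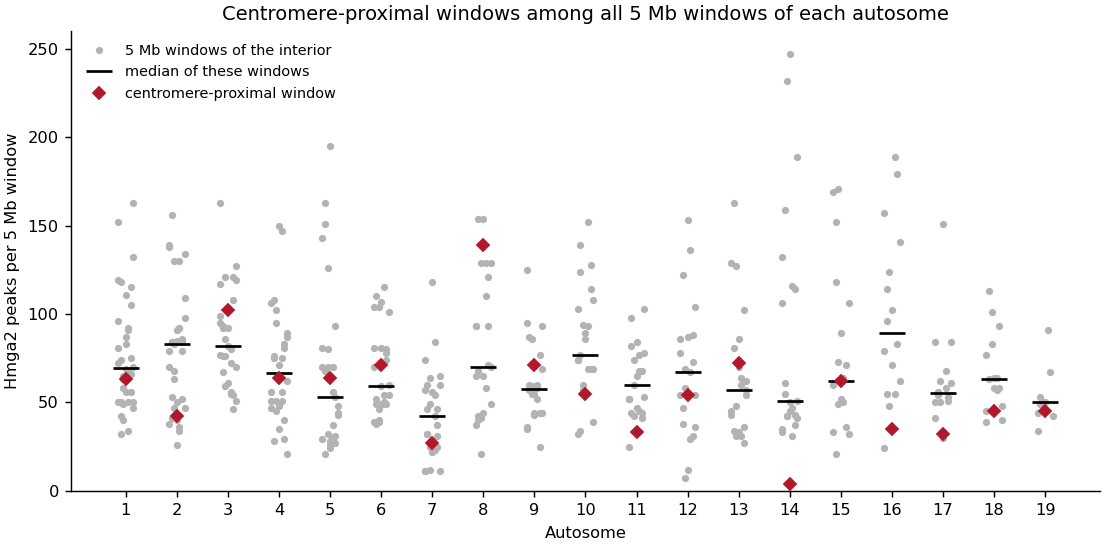
Number of Hmga2 peaks per 5 Mb window (vertical axis) on each autosome (horizontal axis), with interior windows as grey dots, their median as a black dash and the centromere-proximal window as a red diamond. The diamond of chromosome 14, at 4 peaks, lies below every grey dot, whereas that of chromosome 8, at 139, lies near the top of its chromosome.

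The lower density did not end at 8 Mb. The 5 consecutive megabases of the windows held 10, 13, 11, 11.5 and 11.4 peaks per Mb, averaged over the autosomes, without a gradient towards the centromere. The next 5 Mb held 11.2 peaks per Mb (interval 10.5 to 11.9), so the ratio of the windows to this neighbouring stretch was 1.02. Chromosome 8 raised this ratio, with 139 peaks in its window and 37 in the next 5 Mb, and chromosome 14 lowered it, with 4 and 33. Without these chromosomes the windows held 11.02 peaks per Mb and the next 5 Mb 11.66. From 10 to 15 Mb inside the first base of the window the density was 16.03 peaks per Mb (15.2 to 16.9), above the interior mean, and in the next 4 steps of 5 Mb it was 12.7, 12.7, 12.5 and 12.0. A density near 12 peaks per Mb thus occurred in steps far from the centromere too. At the inner edge itself the values were continuous. The last 500 kb inside the rule held 91 peaks with a median length of 182 bp and a median pileup of 6.32, and the first 500 kb outside held 92 peaks with 194.5 bp and 6.34. These edge counts were not repeated without chromosome 8.

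**Figure D3:**
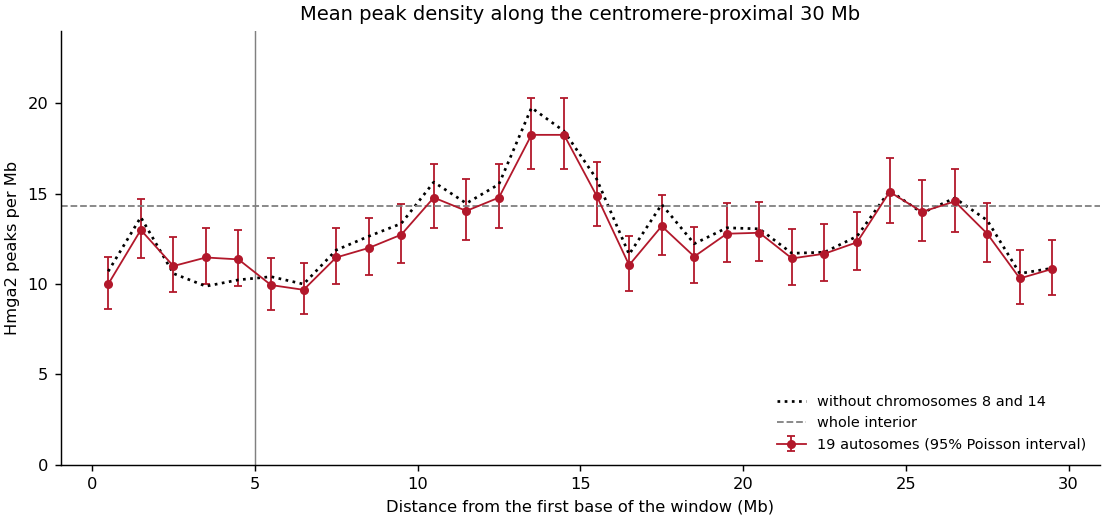
Mean Hmga2 peaks per Mb over the 19 autosomes (vertical axis) against the distance from the first base of the window in Mb (horizontal axis), with exact 95% Poisson intervals, the same without chromosomes 8 and 14 (dotted) and the mean of the interior (dashed). The vertical line marks the end of the window at 5 Mb, and the curve stays between 9.68 and 13 peaks per Mb over the first 10 Mb before it reaches 18.3 in the megabases from 13 to 15 Mb.

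Chromosomes 8 and 14 carried much of the variation. Without chromosome 8 the ratio to the interior was 0.734 (0.687 to 0.783), without chromosome 14 it was 0.843 (0.792 to 0.895), and without both it was 0.783 (0.733 to 0.835). The direction was thus kept in each case.

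The window of chromosome 8 held 12.9% of all centromere-proximal peaks (Wilson interval 11% to 15%). They were not spread over it. Its successive megabases held 7, 13, 29, 49 and 41 peaks, and the following ones, outside the window, 12, 6 and 7. The 3 megabases from 5000000 to 8000000 therefore held 119 of the 139 peaks. These 119 peaks were of ordinary strength, with a median pileup of 6.27 (interval of the median 6 to 6.49), a median length of 208 bp (193 to 248 bp) and a median fold of 3.67. Their median distance to the nearest peak centre was 7.61 kb. A neighbour within 10 kb was found for 54.6% of them (45.7% to 63.3%), compared with 34.6% (32.5% to 36.7%) in the interior of the chromosome. These megabases were singled out for their counts after they had been seen, so close neighbours follow from the choice, and 50.9% of the interior peaks in megabases with over 25 peaks had such a neighbour. The 20 peaks of the first 2 megabases had a median distance of 52.4 kb to the nearest peak centre, with 3 of them within 10 kb of one, and a median pileup of 7.90 (6.92 to 10.1). The background of the authors' peak caller was at its lowest value in 36.1% of the 119 peaks (28.1% to 45.1%) and in 37.5% of the interior peaks of chromosome 8, compared with 47.7% of the centromere-proximal peaks of the other autosomes. The part of the background in the high count of chromosome 8 was not tested.

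On chromosome 14 the 4 peaks lay more than a megabase apart, and the longest stretch of the window without a peak centre was 1643 kb. The corresponding stretch had a median of 511 kb over all autosomes and was 314 kb on chromosome 13, the shortest. The outermost peak of chromosome 14, peak 9605 at 3167394 to 3167536, was among the strongest of all centromere-proximal peaks, with a pileup of 16.55 and a fold of 8.61. The other 3 had pileups of 5.76, 8.65 and 5.76 and folds of 3.66, 3.35 and 3.66. Sparse peaks continued beyond the window, where the 5 following megabases held 0, 8, 9, 6 and 10 peaks. How much of this window reads can map to uniquely was not determined.

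Chromosome 3 had the second fullest window. Its megabases held 13, 26, 28, 26 and 9 peaks, a broad hump rather than a rise towards the inner end. The peaks there were long and low, with a median length of 226.5 bp (185 to 263 bp) against 191 bp in the interior, and a median pileup of 6.01 (5.56 to 6.42) against 6.26. On chromosome 7 the opposite combination was seen. The 27 peaks had a median length of 161 bp (138 to 220 bp) against 180 bp in the interior and a median pileup of 7.63 (6.39 to 9.09) against 6.58. The intervals of all these medians held the interior value. A q under 0.05 was reached by 61.8% (52.1% to 70.6%) of the window of chromosome 3, beside 72.6% of its interior, and by 26 of the 27 peaks of chromosome 7, or 96.3% (81.7% to 99.3%), beside 77.1%.

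On chromosome 16 both medians lay apart from the interior. Its 35 peaks had a median pileup of 7.29 (6.37 to 7.93), beside 6.18, and a median length of 171 bp (158 to 190 bp), beside 193 bp. A q under 0.05 was reached by 88.6% of them (74.05% to 95.5%), beside 70.6%. Its density was 7 peaks per Mb, beside 19.3 in its interior, the fullest of the autosomes. The interval of the median pileup missed the interior value on 3 autosomes, with chromosome 1 slightly above, chromosome 13 slightly below and chromosome 16 farthest, and that of the median length on chromosome 16 only. Chromosome 16 was singled out after its values had been seen.

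**Figure D4:**
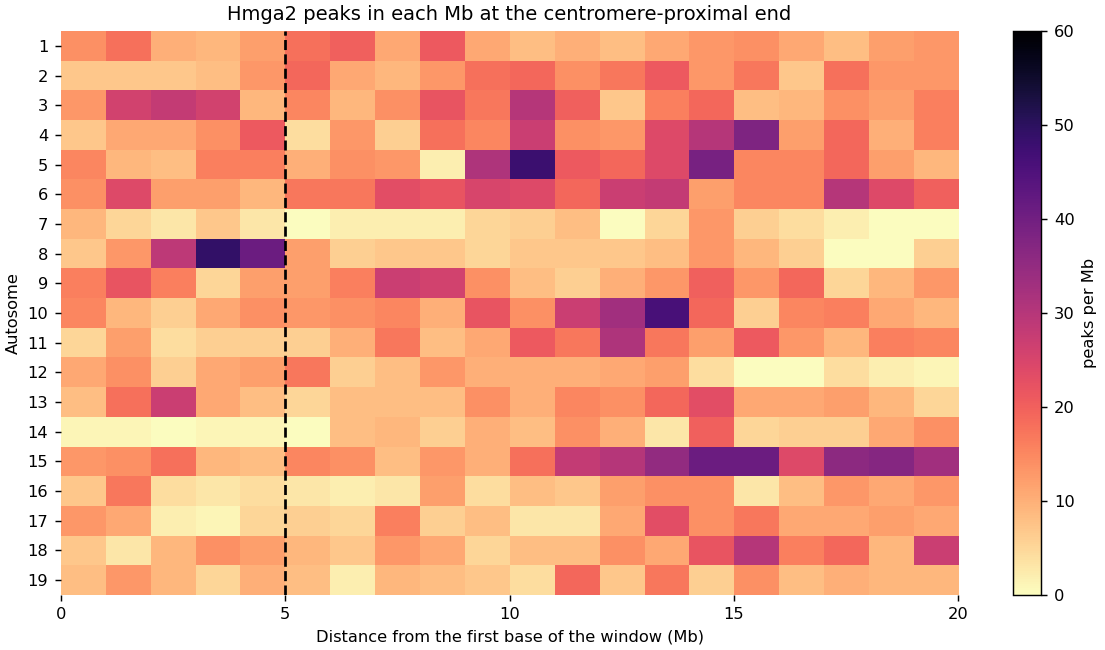
Number of Hmga2 peaks in each Mb (colour scale, 0 to 60) along the first 20 Mb from the first base of the window (horizontal axis, Mb) of each autosome (vertical axis), with the end of the window at the dashed line. The darkest cell, with 49 peaks, lies in the window of chromosome 8, and similar ones lie outside the windows, such as 48 peaks on chromosome 5 and 46 on chromosome 10. The window of chromosome 14 is pale throughout, and empty cells also occur farther in on chromosomes 7, 8, 12 and 14.

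Over all windows, the single peaks differed little from those of the interior. The median length was 185 bp (interval of the median 175 to 196 bp) compared with 188 bp in the interior, and the median pileup was 6.36 (6.29 to 6.46) compared with 6.33. Median folds were both 3.75, and the median background was 0.863 fragments compared with 0.867. The shortest length, 134 bp, was found for 22.0% of the centromere-proximal peaks (19.7% to 24.6%) and 20.5% of the interior peaks (20.0% to 20.9%). Lengths over 500 bp made up 3.15% (2.26% to 4.37%) and 3.68% (3.48% to 3.90%). The centromere-proximal peaks covered 249 kb in total, or 2.62 kb per Mb, and those of the interior 3.36 kb per Mb.

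The median pileup of a window ranged from 6.01 on chromosome 3 to 7.63 on chromosome 7, while interiors spanned 6.18 to 6.58. The median length ranged from 157.5 bp on chromosome 17 to 226.5 bp on chromosome 3, while interiors spanned 180 to 196 bp. The medians of the windows rest on 4 to 139 peaks each, and those of the interiors on 511 to 2819. Windows with more peaks had lower median pileups (Spearman rho = -0.64 over 19 autosomes) and longer peaks (rho = 0.61). Without chromosomes 8 and 14 the values were -0.63 and 0.67. The relation was not confined to the chromosome ends, because over the 434 interior windows of 5 Mb rho was -0.58 for pileup and 0.42 for length. All these points share 1 library and its threshold for calling peaks, and the correlations are given as a description.

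**Figure D5:**
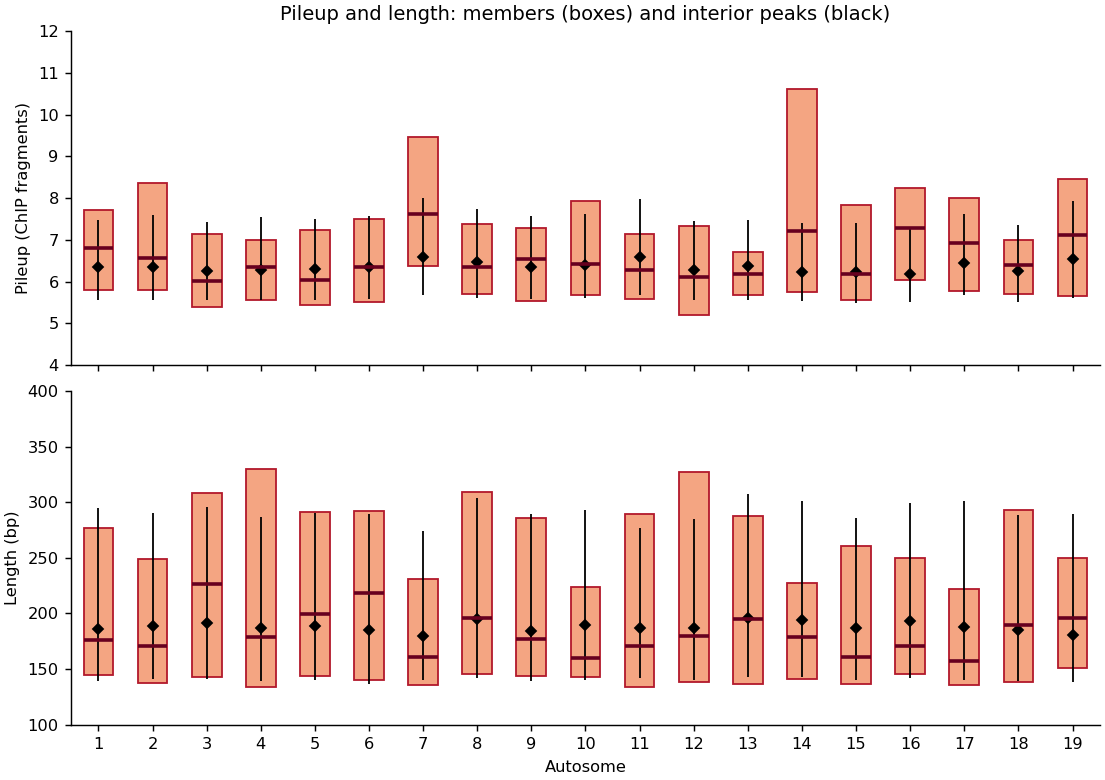
Pileup in ChIP fragments (upper panel) and length in bp (lower panel), on axes that do not start at 0, of the centromere-proximal peaks of each autosome, with boxes from the lower to the upper quartile and the median as a line, and the median and quartiles of interior peaks in black. The medians of the boxes scatter around the black diamonds, from 6.01 to 7.63 in pileup, and the box of chromosome 14 rests on 4 peaks.

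The confidence of the calls was then compared. A q under 0.05 was reached by 800 of the 1080 peaks, which is 74.1% (71.4% to 76.6%), beside 72.5% in the whole list and 72.4% in the interior. A q under 1e-05 was reached by 59 peaks, or 5.46% (4.26% to 6.98%), beside 6.01% in the whole list and 6.06% in the interior. Both shares were close to those of the list. The peaks with a q under 1e-05 had a density of 0.621 per Mb in the windows and 0.869 in the interior, a ratio of 0.715 (0.542 to 0.926). Chromosome 8 had 9 of them, which is 6.47% of its window, beside 6.44% of its interior. Chromosomes 7, 16 and 19 had 7 each, and chromosomes 12 and 13 had none. On chromosome 7 they made up 25.9% of the window (13.2% to 44.7%), compared with 8.18% of its interior, and on chromosome 16 they made up 20.0% (10.0% to 35.9%), compared with 4.53%. On chromosome 19 the share was 15.6% (7.75% to 28.8%), compared with 7.83%. Chromosome 13, with 72 peaks in its window, had none (Wilson interval 0% to 5.07%, and up to 4.17% by the limit of 3 counts), and its interior had 5.67%. These chromosomes were singled out after their values had been seen.

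The strongest centromere-proximal peak by p was peak 32635, on chromosome 9 at 3833172 to 3833382. It was 211 bp long and had a pileup of 21.4 and a fold of 11.9. Its -log10 p, 24.1, placed it 16th in the list. Peak 30651, on chromosome 8 at 7510768 to 7511043, followed with a pileup of 23.5 and a fold of 9.94. It lay in the dense megabases described above, 2.95 kb from its neighbour. Peak 29307, on chromosome 7 at 6311575 to 6312100, had a fold of 9.61 and was 526 bp long. Peak 5075, on chromosome 11 at 5385042 to 5385216, had a fold of 9.09 and no other peak centre within 184.7 kb. These were the 4 centromere-proximal peaks among the 100 peaks with the highest -log10 p of the list. None was among the first 10, and 23 were among the first 1000, while members make up 3.12% of the whole list.

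The other 6 of the 10 strongest peaks had folds between 7.54 and 9.49. They were peak 32629 on chromosome 9 at 3518483 to 3518716, peak 11630 on chromosome 15 at 5530934 to 5531192, peak 9605 on chromosome 14, peak 17225 on chromosome 19 at 6968031 to 6968209, peak 29299 on chromosome 7 at 4765529 to 4765736 and peak 30547 on chromosome 8 at 4836144 to 4836298. Chromosomes 7, 8 and 9 thus held 2 each of the 10. Strong peaks were found both alone and in company, with a neighbour at 1.33 kb for peak 30547 and at 1220 kb for peak 9605. Apart from peak 29307, the 10 were 143 to 276 bp long.

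A high pileup did not always go with a high fold. The highest pileup of the centromere-proximal peaks, 40.2, belonged to peak 8030 on chromosome 13 at 4559141 to 4559274, whose fold was 2.22, the lowest of all members. Its background of 17.6 fragments was the highest of all autosomal peaks, the next being 8.14 in the interior. Peak 58, on chromosome 1 at 7383442 to 7383674, was the only other member with a background over 3 fragments, at 3.27. A background over 1.5 fragments was found for 40 members, or 3.70% (2.73% to 5.00%), and for 3.01% (2.83% to 3.21%) of the interior peaks. The lowest background, 0.844 fragments, was met within 1% by 46.2% of the members (43.2% to 49.2%) and 45.3% of the interior peaks.

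Peaks reached close to the start of the assembled sequence. No autosomal peak had its centre in the first 3000000 bases, which the assembly leaves as a gap. The first peak of a chromosome started 1.53 to 337 kb after that position, with a median of 133 kb. Peak 25321 on chromosome 5 lay nearest, at 3001530 to 3001726, with a pileup of 10.8, a fold of 4.58 and a background of 1.57 fragments. It was followed by peak 29288 on chromosome 7 at 3011089 to 3011249 and peak 11597 on chromosome 15 at 3016482 to 3016629, with folds of 4.95 and 5.17. The first peaks of chromosomes 9, 4 and 13 lay farthest, starting at 3337378, 3333985 and 3314056. Of the 19 outermost peaks, only peak 9605 of chromosome 14 was among the 10 strongest.

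The longest centromere-proximal peaks had pileups near or below the median of 6.36. Peak 20585, on chromosome 3 at 6349959 to 6350967, was 1009 bp long with a pileup of 6.19. Peak 23283, on chromosome 4 at 6484284 to 6485092, was 809 bp long with a pileup of 6.26, and peak 5070, on chromosome 11 at 4452215 to 4453011, was 797 bp long with a pileup of 5.58. Their folds were 3.90, 3.91 and 3.50, beside a median fold of 3.75.

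Peaks next to the centromere lay farther apart than those of the interior. The median distance to the nearest peak centre was 24.6 kb, compared with 17.7 kb. A neighbour within 10 kb was found for 26.8% of the members (24.2% to 29.5%), compared with 33.9% in the interior (33.4% to 34.4%), and the share was lower than in the own interior on 16 of the 19 autosomes. Without chromosome 8 the share was 23.5% (20.9% to 26.3%). Members and interior peaks were also compared at similar local density. In megabases with 1 to 5 peaks the shares were 7.14% (2.81% to 16.98%) and 6.66%. In megabases with 6 to 10 peaks they were 17.9% (13.5% to 23.4%) and 15.6%, in those with 11 to 15 peaks 23.98% (19.9% to 28.6%) and 25.3%, and in those with over 25 peaks 46.9% (40.5% to 53.4%) and 50.9%. In megabases with 16 to 25 peaks, 24.8% of the 202 members (19.3% to 31.1%) had a neighbour, compared with 35.6% (34.6% to 36.6%) of the interior peaks. The interval of the members thus held the interior share in each of these classes but that one.

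Of the 95 megabases of the windows, 10 held at least 20 peaks, which is 10.5% (5.82% to 18.3%), compared with 22.1% (20.4% to 23.8%) of the 2213 interior megabases. At least 30 peaks were held by 2.11% (0.579% to 7.35%) and 8.36% (7.28% to 9.59%). At least 40 were held by the same 2 megabases of the windows, both on chromosome 8, and by 2.58% (1.99% to 3.32%) of the interior megabases. Empty megabases made up 1.05% (1 megabase, on chromosome 14) and 1.27%. The median megabase held 10 peaks in the windows and 12 in the interior. Runs of members with successive centres under 10 kb apart were short. Of the 912 runs, 791 were single peaks, 89 were pairs, 18 had 3 peaks and 13 had 4. The only run of 5, on chromosome 8 at 6339736 to 6360394, spanned 20.7 kb, had pileups of 5.98 to 7.58, and its 5 peaks all had a q under 0.05.

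The opposite chromosome ends gave a comparable picture in density. The last 5 Mb before the last peak end of each autosome held 1143 peaks, or 12.0 per Mb, a ratio to the interior of 0.839 (0.790 to 0.890). A neighbour within 10 kb was found for 29.2% of these peaks (26.7% to 31.9%) and their median distance to the nearest peak centre was 20.4 kb, so both values lay between those of the members and of the interior. Peak numbers at the opposite ends of a chromosome had a Spearman correlation of 0.16 over the 19 autosomes. The centromere-proximal window held fewer peaks than the opposite end on 8 autosomes, more on 10 and as many on chromosome 16, where both held 35. The largest difference in number was on chromosome 17, with 32 and 130 peaks, and the largest ratio on chromosome 14, with 4 and 62. On chromosome 4 it ran the other way, with 64 and 17 peaks.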

How the data were processed

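Hmga2 ChIP and input chromatin of E14Tg2a-derived cells were sequenced once each. The authors removed adapters, mapped reads with BWA, discarded ambiguous ones and ran MACS2 in its broad mode on the ChIP library against the input. Per the log of the peak caller in the supplement of the study, the input was the larger library, and the larger one was scaled to the smaller. The processing notes of the submitters name mm9. The methods name mm9 and GRCm38, and 136 peaks on 7 chromosomes end beyond GRCm38, so no GRCm38 coordinate was combined with the list. The deposited signal is the pileup, used as deposited. The 3 deposited score columns (fold, -log10 p and -log10 q) hold displaced decimal points, since 34258 of 34597 folds exceed the pileup plus 1. The points of fold and p were put back where fold, pileup and Poisson p fit each other, with a median deviation of p of 0.473% and at most 13.7%. The point of q was then placed so that the ratio of q to p came nearest to that of peaks with a similar p. No separate check of q was made. All folds, p, q and backgrounds rest on these steps, although the design had taken the columns at their headers. Library depth is not given in the list.

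Density ratios carry exact conditional Poisson intervals, shares Wilson intervals (a share of 0 also the limit of 3 counts) and medians order-statistic intervals, all at 95% (Python 3.11.15, numpy 2.4.6, scipy 1.17.1, pandas 2.3.3). Neighbours are peak centres of the whole list within 10 kb, except in smaller peak sets, where only peaks of the set count. The restoration of fold and p and the pooled density ratio were tested on simulated data, whereas restored q and the other measures were not. Peaks named are the 10 with the highest -log10 p, the outermost of each chromosome, the 3 longest and the longest run, plus those with the highest background and the peaks of chromosome 14, added after their values were seen. Windows named by rule are the 3 fullest and 3 emptiest, and the windows of other chromosomes were named after their values were seen. The members and rules were chosen with earlier results of these data known. Alternatives were other peak sets, window widths and starts, other definitions of the interior, merged peaks, covered bases and each chromosome left out.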

Additional observations from a re-analysis of the deposited data

How the results depend on the processing

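No paired analysis was possible because the list rests on a single ChIP library. The direction of the density ratio, 0.793, was kept under all alternatives except the next 5 Mb as the interior, where it was 1.02, with 8 instead of 5 autosomes denser in the window. That exception was not kept without chromosomes 8 and 14, where the windows held 11.02 peaks per Mb and the next 5 Mb 11.66. With the interior as defined at first, the ratio was 0.793 as stated. The ratio was 0.715 at a q under 1e-05, 0.709 at a p of at most 1e-08 and 0.890 with the median of 5 Mb windows as the interior. With each chromosome left out it ranged from 0.734 (chromosome 8) to 0.843 (chromosome 14). Only 1 autosome had an interval above 1. This count, the ratio without chromosomes 8 and 14, and the ratio at a q under 1e-05 without chromosome 14, 0.756, were chosen after the data had been seen.

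The median length was 161 bp at a fold of at least 4, 167 bp at a q under 0.05 and 223 bp without the shortest peaks, beside 165, 171 and 220 bp in the interior. At a q under 1e-05 it was 186 bp and at a p of at most 1e-08 185 bp, beside 199 and 194 bp. The median pileup was 7.78, 6.87, 12.2 and 11.2 in the sets chosen by fold, by a q under 0.05, by a q under 1e-05 and by p, and 6 at the lowest background, beside 7.95, 6.88, 12.2, 11.5 and 5.93. These sets select on strength by construction. In the same 4 sets, only peaks of the set itself were counted as neighbours. A neighbour within 10 kb was found for 9.98%, 20.75%, 0% and 0% of the members, beside 13.5%, 25.1%, 3.00% and 3.84% in the interior. These sets hold fewer peaks, so lower shares follow in part from the thinner lists. In the whole list, peaks 30547 and 30651, both with a q under 1e-05, had neighbours at 1.33 and 2.95 kb. With 0 of 59 members at a q under 1e-05 having a neighbour of that set, a share of up to 5.08% is allowed by the limit of 3 counts, and up to 6.11% by the Wilson interval. Counted in the whole list, the share was 73.3% beside 80.5% within 50 kb, and 16.02% beside 19.2% within 5 kb. Single peaks rest on few fragments, and counts under 30 peaks per window limit the values of chromosomes 7 and 14.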
